A study of Homo sapiens with 16 samples.

Results

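The FGF receptors FGFR1 to FGFR4, the D cyclins CCND1 to CCND3 and the kinases CDK4 and CDK6 were followed across 16 RNA-seq libraries of human lung adenocarcinoma cells. These 9 genes were taken by name from a table of 60448 gene identifiers, as a pathway tied in earlier work to SCAT7, a long noncoding RNA. All 9 were measured, and 8 averaged 0.5 FPKM or more over the libraries, the minimum for testing; FPKM scales a gene's fragments by exon length and library total. FGFR2 did not and is described without a test.

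A549 is an established line of lung adenocarcinoma, and A549/cDDP is its cisplatin-resistant derivative. A549/cDDP was maintained in medium that held cisplatin at a labelled 15 mM, so its solvent and gapmer controls share that history, and the labels describe 1 resistant line. The 8 groups held 2 libraries each. A549 in solvent, A549 in cisplatin, A549/cDDP in solvent and A549/cDDP in cisplatin were not transfected. A549/cDDP also received a control gapmer or the gapmer that the design text ties to SCAT7, each followed by solvent or cisplatin. A gapmer is a DNA oligonucleotide with modified ends that pairs with an RNA and has it cut by RNase H. Per the labels' protocols, each well was seeded with 35000 cells and 12 pmol of gapmer was used for transfection. Drug or solvent acted for 24 h, with cisplatin at the same labelled 15 mM in the cisplatin groups. Transfected cells were collected at 48 h after transfection, also per the protocols. The unit of the cisplatin concentration is given as labelled and was not checked. The labels do not say that replicates came from separate cultures, so every p-value measures only the spread between these samples, which may be technical.

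FGF receptors are tyrosine kinases at the cell surface that bind fibroblast growth factors and pass the signal through the adaptor FRS2 to RAS and the ERK kinases. ERK signalling raises transcription of the cyclin D1 gene, and D cyclins bind and activate CDK4 and CDK6, which phosphorylate the retinoblastoma protein RB1 and so free E2F factors to switch on genes of S phase. The p16 family (CDKN2A to CDKN2D) blocks CDK4 and CDK6, and loss of RB control is common in lung cancer.

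RefSeq windows of 250 bases before a start site, build GRCh38.p14, were at hand for 6 of the 9 genes: FGFR2, FGFR3, FGFR4, CCND3, CDK4 and CDK6. FGFR4 and CDK4 are shown because both were lower in cisplatin-treated A549 and with the SCAT7 gapmer against its control. CCND3 is shown because it was not lower in cisplatin-treated A549, though it too was lower with the SCAT7 gapmer against its control. Capitals mark the letters GGGCGG (the GC box) and CACGTG (an E-box), searched on both strands, so that a GC box on the other strand reads CCGCCC. The FGFR4 window lies at chr5:177086665-177086914 on the plus strand, the CDK4 window at chr12:57752311-57752560 on the minus strand and the CCND3 window at chr6:42048689-42048938 on the minus strand, each printed 5′ to 3′ along the gene.
FGFR4: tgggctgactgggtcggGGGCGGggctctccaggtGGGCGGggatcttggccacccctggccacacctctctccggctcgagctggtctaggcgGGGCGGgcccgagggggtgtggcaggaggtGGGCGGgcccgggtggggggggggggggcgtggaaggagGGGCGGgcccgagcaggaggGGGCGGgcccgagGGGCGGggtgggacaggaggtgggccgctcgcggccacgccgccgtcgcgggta
CDK4: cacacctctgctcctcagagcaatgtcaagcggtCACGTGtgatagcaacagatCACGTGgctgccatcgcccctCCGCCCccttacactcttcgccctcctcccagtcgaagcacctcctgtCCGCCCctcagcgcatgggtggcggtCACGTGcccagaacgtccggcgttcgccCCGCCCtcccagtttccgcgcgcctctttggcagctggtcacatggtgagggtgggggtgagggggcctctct
CCND3: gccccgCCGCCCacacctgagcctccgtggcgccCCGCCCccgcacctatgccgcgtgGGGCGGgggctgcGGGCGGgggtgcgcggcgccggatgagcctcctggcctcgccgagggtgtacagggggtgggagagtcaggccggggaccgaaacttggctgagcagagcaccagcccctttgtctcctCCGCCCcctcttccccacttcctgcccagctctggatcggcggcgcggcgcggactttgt
RefSeq has more than 1 start for 2 of these genes, and the window of the first listed is printed. The FGFR4 window held 7 GC boxes and no CACGTG. The CDK4 window held 3 GC boxes and 3 copies of CACGTG, and the CCND3 window 5 GC boxes and no CACGTG. Of 35116 windows of this length, 42.6% held GGGCGG and 6.3% held CACGTG. GC content was 79.6% for FGFR4, 65.6% for CDK4 and 74.4% for CCND3, against a median of 58.0% over all windows. Another FGFR4 window, not printed, held 0 GC boxes and 1 CACGTG at 57.2% GC, and of 2 more CCND3 windows 1 held 2 GC boxes (71.2% GC) and 1 held 0 (61.2% GC). Which starts these cells use was not measured, and the matches describe letters, not binding sites.

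The libraries held 31350000 to 43140000 fragments, and the gapmer groups differed: 31350000 to 33400000 for SCAT7, 42300000 to 43140000 for the control. The SCAT7 gapmer libraries also had the most genes above 0, 29042 to 29545 against 24606 to 27683 in the other libraries, and the part of either in the results below was not tested. Replicates correlated across genes at 0.991 to 0.996. All 6 epithelial markers were detected, led by KRT7 at a median of 3120 FPKM. EPCAM was low, at 0.584 to 3.81 FPKM (median 1.03), and CDH1 ran from 2.02 to 14.5. In each SCAT7 gapmer group 5 of the 6 passed 1 FPKM in at least 1 library, and in every other group all 6 did. The alveolar markers were mixed: SFTPA1, SFTPB and SFTPC stayed at or under 0.194 FPKM. ABCA3 stood at 16.6 to 24.4 FPKM, NAPSA at 0.792 to 3.19 and NKX2-1 at 0 to 1.34. The 3 endothelial markers summed to at most 0.284 FPKM and the 5 leukocyte markers to at most 1.08, and of 4 fibroblast markers COL1A1 alone passed 1 FPKM, at up to 52.7.

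SCAT7 was read from ELF3-AS1 (ENSG00000234678), for which RefSeq lists SCAT7 as a synonym. After the control gapmer it stood at 2.56 and 3.57 FPKM in solvent and at 3.73 and 3.23 in cisplatin. After the SCAT7 gapmer it stood at 0.594 and 0.837 in solvent and at 1.69 and 2.18 in cisplatin. The groups did not overlap in either setting, and ELF3-AS1 fell by 1.54 on the scale log2(FPKM + 0.5) in solvent (limma adjusted p = 7.5e-06) and by 0.71 in cisplatin (limma adjusted p = 0.00355). Against untransfected A549/cDDP it fell by 1.66 in solvent (limma adjusted p = 5.6e-06) but stood at -0.27 in cisplatin (0.21). Cisplatin raised ELF3-AS1 in A549, from 2.97 and 3.27 to 15.2 and 13.2 FPKM (2.02, limma adjusted p = 3.78e-07). All log2 changes below are on that scale, with their standard errors, and "higher", "lower", "rose" and "fell" are used of changes with a limma adjusted p under 0.05.

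By level, CCND1 led the 9 genes in every group and FGFR2, FGFR3 and CCND2 were the 3 lowest in every group. In solvent, CCND1 averaged 424 ± 11.2 FPKM (SD, n = 2) in A549, with CDK4 at 213 and CCND3 at 193. FGFR1 followed at 69.0, FGFR4 at 42.9 and CDK6 at 35.4, and FGFR3 (3.58), FGFR2 (0.832) and CCND2 (0.0285) were far below. In A549/cDDP in solvent the order was CCND1, CDK4, CCND3, FGFR1, CDK6, FGFR4, CCND2, FGFR3 and FGFR2. In the plot of FPKM by library, all A549 libraries lie above all A549/cDDP libraries for FGFR2, FGFR3 and CCND3, and below them for CCND1, CCND2 and CDK6.

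**Figure D1:**
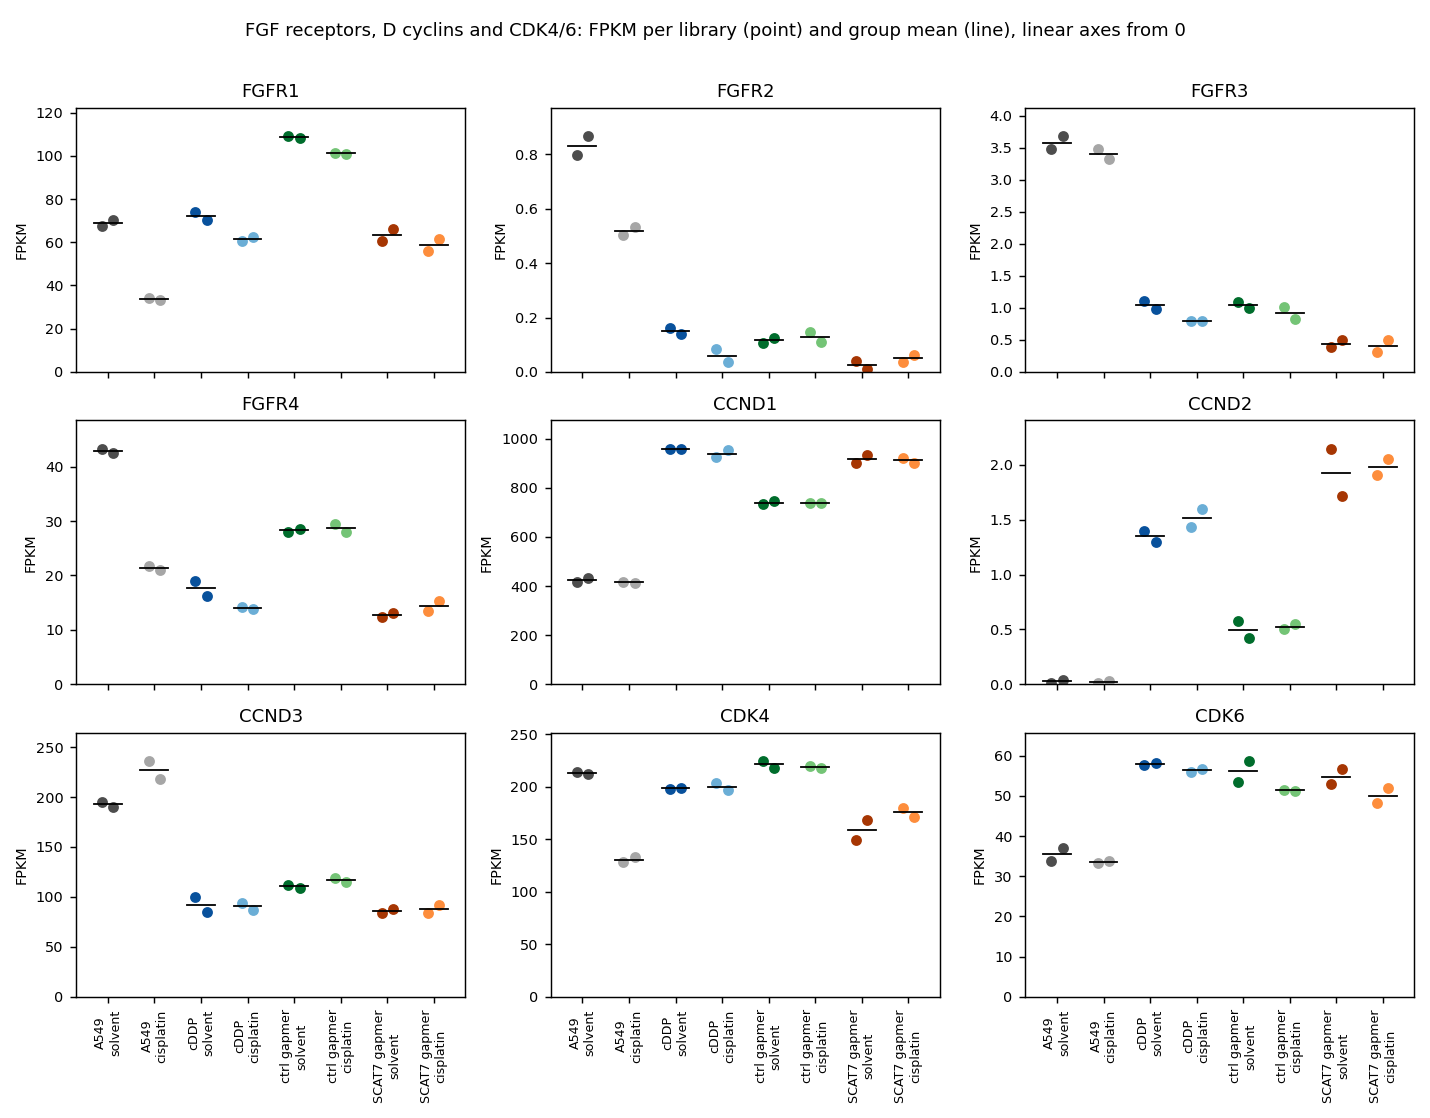
FPKM of the 9 genes (y axis, linear from 0) in the 8 groups (x axis); each point is 1 library and each line the mean of 2, and the gapmer groups are A549/cDDP. FGFR1 is highest in the 4 control gapmer libraries, at 101 to 109 FPKM, and lowest in A549 in cisplatin, at 33.4 and 34.0.

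FGFR1, the receptor with the most transcript here, fell with cisplatin in A549. Its values were 67.7 and 70.2 FPKM in solvent and 34.0 and 33.4 in cisplatin, so both drug libraries lay far below both controls, and the log2 change was -1.02 ± 0.05 (SE; limma adjusted p = 3.95e-09). In A549/cDDP the values were 74.2 and 70.2 in solvent and 60.4 and 62.6 in cisplatin. These groups did not overlap either, and FGFR1 fell by 0.23 ± 0.05 (limma adjusted p = 0.0182). That smaller call ended in a fit of the 4 libraries alone (adjusted p = 0.0637), with no filter on low values (0.0522), and without A549/cDDP cisplatin replicate 1 (0.0945), cisplatin replicate 2 (0.0615) or solvent replicate 1 (0.142). The drug response differed between the lines by 0.79 ± 0.07 (limma adjusted p = 2.32e-06). In solvent the lines did not differ past the threshold, with a change of 0.07 and a 95% interval of -0.05 to 0.19. In cisplatin FGFR1 was higher in A549/cDDP by 0.86 ± 0.05 (limma adjusted p = 1.91e-08). Fewer cells with a transcript and less transcript per cell cannot be told apart in such bulk libraries.

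FGFR1 was highest with the control gapmer. With the control gapmer it stood at 109 and 108 FPKM in solvent and at 102 and 101 in cisplatin, the 4 highest values of the 16 libraries. With the SCAT7 gapmer it stood at 60.8 and 66.2 in solvent and at 55.8 and 61.7 in cisplatin, close to the untransfected A549/cDDP libraries. Against the control gapmer, FGFR1 was lower with the SCAT7 gapmer by a log2 change of -0.77 ± 0.05 in solvent (limma adjusted p = 1.3e-07) and -0.78 ± 0.05 in cisplatin (2.06e-07). With the control gapmer FGFR1 was higher than in untransfected cells by 0.59 ± 0.05 in solvent (limma adjusted p = 3.21e-06) and 0.71 ± 0.05 in cisplatin (5.13e-07). The SCAT7 gapmer against untransfected cells gave -0.19 ± 0.05 in solvent (limma adjusted p = 0.00953), not past the threshold without SCAT7 gapmer replicate 1 (0.106) or untransfected replicate 1 (0.085). In cisplatin it gave -0.07 (0.302), with groups that overlapped, and -0.14 (limma adjusted p = 0.0457) without SCAT7 gapmer replicate 2.

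FGFR4, the receptor best known for FGF19 signalling in liver, was lower in A549/cDDP than in A549, lower with cisplatin in both lines and lower with the SCAT7 than with the control gapmer. A549 held 43.3 and 42.5 FPKM in solvent and 21.8 and 21.1 in cisplatin. A549/cDDP held 18.9 and 16.3 in solvent and 14.1 and 13.8 in cisplatin. The 4 groups did not overlap, with A549 in solvent highest of all 8 groups. Cisplatin changed FGFR4 by -0.98 ± 0.07 in A549 (limma adjusted p = 1.1e-07) and by -0.32 ± 0.07 in A549/cDDP (0.0168), a difference between lines of 0.67 ± 0.10 (0.000153). The call in A549/cDDP ended in a fit of the 4 libraries alone (adjusted p = 0.109) and without cisplatin replicate 1 (0.0539), cisplatin replicate 2 (0.107) or solvent replicate 1 (0.146). A549/cDDP was below A549 by -1.26 ± 0.07 in solvent (limma adjusted p = 8.55e-09) and by -0.60 ± 0.07 in cisplatin (9.5e-06).

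With gapmers, FGFR4 stood at 27.9 and 28.6 FPKM in solvent and 29.4 and 28.0 in cisplatin for the control, and at 12.4 and 13.1 in solvent and 13.5 and 15.4 in cisplatin for SCAT7. All 4 control gapmer libraries lay above all 4 SCAT7 gapmer libraries and above all 4 untransfected A549/cDDP libraries. The SCAT7 gapmer lowered FGFR4 against its control by -1.11 ± 0.07 in solvent (limma adjusted p = 8.43e-08) and -0.97 ± 0.07 in cisplatin (4.57e-07). The control gapmer against untransfected cells gave 0.67 ± 0.07 in solvent (limma adjusted p = 1.4e-05) and 1.01 ± 0.07 in cisplatin (3.84e-07). The SCAT7 gapmer against untransfected cells gave -0.44 ± 0.07 in solvent (limma adjusted p = 0.000221) and 0.04 ± 0.07 in cisplatin (0.672), where the groups overlapped.

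FGFR3, a receptor mutated in bladder cancer, separated the lines and fell again with the SCAT7 gapmer. A549 held 3.48 and 3.68 FPKM in solvent and 3.48 and 3.33 in cisplatin, and A549/cDDP 1.11 and 0.989 in solvent and 0.787 and 0.802 in cisplatin. No A549/cDDP library reached an A549 library, and the line difference was -1.40 ± 0.13 in solvent (limma adjusted p = 1.02e-06) and -1.59 ± 0.13 in cisplatin (3.41e-07). Cisplatin did not move FGFR3 past the threshold in A549 (-0.06, 95% interval -0.37 to 0.24) or in A549/cDDP (-0.26, -0.56 to 0.05). With the control gapmer it stood at 1.09 and 1.004 in solvent and 1.01 and 0.823 in cisplatin, and with the SCAT7 gapmer at 0.384 and 0.496 in solvent and 0.314 and 0.506 in cisplatin. The SCAT7 gapmer libraries were the 4 lowest of all, from 50 to 80 reads each. FGFR3 was lower than with the control gapmer by -0.72 ± 0.13 in solvent (limma adjusted p = 0.000521) and -0.64 ± 0.13 in cisplatin (0.00151). The control gapmer gave no call against untransfected cells, with 0.00 (95% interval -0.30 to 0.30) in solvent and 0.13 (-0.18 to 0.43) in cisplatin. The SCAT7 gapmer gave -0.72 ± 0.13 against untransfected cells in solvent (limma adjusted p = 0.000606) and -0.52 ± 0.13 in cisplatin (0.00674), the latter lost in a fit of the 4 libraries alone (0.098) and without SCAT7 gapmer replicate 1 (0.0697).

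FGFR2, the remaining receptor, was low throughout. It stood at 0.798 and 0.866 FPKM in A549 in solvent (221 and 231 reads) and at 0.504 and 0.532 in cisplatin. In untransfected A549/cDDP it ran from 0.0347 to 0.162, with the control gapmer from 0.106 to 0.147 and with the SCAT7 gapmer from 0.0125 to 0.0637, where 3 to 16 reads carried it. All 4 A549 libraries lay above all 12 A549/cDDP libraries. By share of summed receptor FPKM, FGFR1 made up 58.7% and 59.9% in A549 in solvent and 78.6% and 80.1% in A549/cDDP, and FGFR4 37.5% and 36.2% against 20.1% and 18.6%. In A549 in cisplatin FGFR1 and FGFR4 kept near those shares, at 56.9% and 57.3% and at 36.4% and 36.1%, while the summed receptor level went from 115 and 117 FPKM to 59.8 and 58.3.

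CCND1, which encodes cyclin D1, differed between the lines and gave no call with cisplatin. A549 held 416 and 432 FPKM in solvent and 417 and 412 in cisplatin, and A549/cDDP 958.5 and 958.8 in solvent and 925 and 953 in cisplatin. Every A549/cDDP library was above every A549 library, by 1.18 ± 0.03 in solvent (limma adjusted p = 2.58e-11) and 1.18 ± 0.03 in cisplatin (3.03e-11). The drug changed CCND1 by -0.03 in each line, with a 95% interval of -0.11 to 0.05 in both; in A549 median ratio scaling gave -0.10 (adjusted p = 0.0406). The control gapmer libraries stood at 734 and 745 in solvent and 740 and 737 in cisplatin, and the SCAT7 gapmer libraries at 902 and 933 in solvent and 923 and 900 in cisplatin. The control gapmer thus sat between the lines, below untransfected A549/cDDP by -0.37 ± 0.03 in solvent (limma adjusted p = 3.6e-06) and -0.35 ± 0.03 in cisplatin (5.56e-06). CCND1 was higher with the SCAT7 gapmer than with the control gapmer by 0.31 ± 0.03 in solvent (limma adjusted p = 7.5e-06) and 0.30 ± 0.03 in cisplatin (1.43e-05). Against untransfected cells the SCAT7 gapmer gave -0.06 in solvent (limma adjusted p = 0.131) and -0.04 in cisplatin (0.317), and in solvent the sign turned with quantile normalization (0.12, adjusted p = 0.0444) while median ratio scaling gave -0.11 (0.0242), and -0.11 in cisplatin (0.0388). LTO1 on the opposite strand shares 497 bases, or 10.3%, of the CCND1 exons.

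CCND2, the gene of cyclin D2, was close to absent in A549 and low in A549/cDDP. A549 held 0.0138 and 0.0431 FPKM in solvent and 0.0139 and 0.0274 in cisplatin, from 4 to 11 reads a library. A549/cDDP held 1.40 and 1.29 in solvent and 1.43 and 1.60 in cisplatin, from 308 to 413 reads. The lines did not overlap, with log2 differences of 1.81 in solvent and 1.95 in cisplatin, sizes that the added 0.5 FPKM holds down. CCND2 reached the minimum for testing only through the A549/cDDP groups (0.0246 FPKM on average without them), so its line difference is given as a description, without a test. The control gapmer libraries fell between, at 0.575 and 0.423 in solvent and 0.5002 and 0.550 in cisplatin, and the SCAT7 gapmer libraries were the 4 highest, at 2.15 and 1.71 and at 1.91 and 2.05. CCND2 was higher with the SCAT7 than with the control gapmer by 1.28 ± 0.14 in each setting (limma adjusted p = 6.7e-06 in solvent and 1.06e-05 in cisplatin). The control gapmer against untransfected cells gave -0.89 ± 0.14 in solvent (limma adjusted p = 0.000255) and -0.97 ± 0.14 in cisplatin (0.000108). The SCAT7 gapmer against untransfected cells gave 0.39 ± 0.14 in solvent (limma adjusted p = 0.0292) and 0.30 ± 0.14 in cisplatin (0.0883). The call in solvent ended with no filter on low values (adjusted p = 0.055), in a fit of the 4 libraries (0.0947), with a pseudocount of 0.1 (0.0987), with quantile normalization (0.336), and without SCAT7 gapmer replicate 1 (0.209), untransfected replicate 1 (0.0659) or untransfected replicate 2 (0.123). The annotation places AC008012.1 on 13.8% of the CCND2 exon length on the same strand, so reads there have no unique gene.

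CCND3, the gene of cyclin D3, ran opposite to CCND1 between the lines. A549 held 196 and 190 FPKM in solvent and 236 and 219 in cisplatin, and A549/cDDP 99.5 and 84.9 in solvent and 94.0 and 86.7 in cisplatin. A549/cDDP was lower without overlap, by -1.06 ± 0.07 in solvent (limma adjusted p = 4.29e-08) and -1.33 ± 0.07 in cisplatin (6.85e-09). In A549 cisplatin raised CCND3 by 0.24 ± 0.07 (limma adjusted p = 0.0119), a call lost with median ratio scaling (0.067) and without cisplatin replicate 1 (0.10) or solvent replicate 2 (0.067). In A549/cDDP the change was -0.03 (95% interval -0.19 to 0.14). The control gapmer libraries stood at 112 and 109 in solvent and 119 and 115 in cisplatin, and the SCAT7 gapmer libraries at 83.6 and 87.9 and at 83.4 and 91.6. The SCAT7 gapmer libraries were below the control without overlap, by -0.37 ± 0.07 in solvent (limma adjusted p = 0.000851) and -0.42 ± 0.07 in cisplatin (0.000417). With the control gapmer CCND3 was higher than in untransfected cells by 0.27 ± 0.07 in solvent (limma adjusted p = 0.0106) and 0.37 ± 0.07 in cisplatin (0.00118). The solvent call was lost without control gapmer replicate 1 (0.25) or untransfected replicate 2 (0.15). Against untransfected cells the SCAT7 gapmer gave -0.10 (95% interval -0.26 to 0.06) in solvent and -0.05 (-0.21 to 0.12) in cisplatin, with overlap in both; without untransfected replicate 2 the solvent value was -0.21 (limma adjusted p = 0.0274).

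Set against each other per length, the D cyclins shifted from a mixed to a CCND1-dominated make-up between the lines. CCND1 was 68.0% and 69.5% of summed D cyclin FPKM in A549 in solvent and 90.5% and 91.8% in A549/cDDP, and CCND3 made up nearly all of the rest. With the control gapmer the CCND1 share was 86.1% to 87.2% over both settings, and with the SCAT7 gapmer 90.6% to 91.5%. The bars of family make-up show both families and the kinase ratio side by side.

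**Figure D2:**
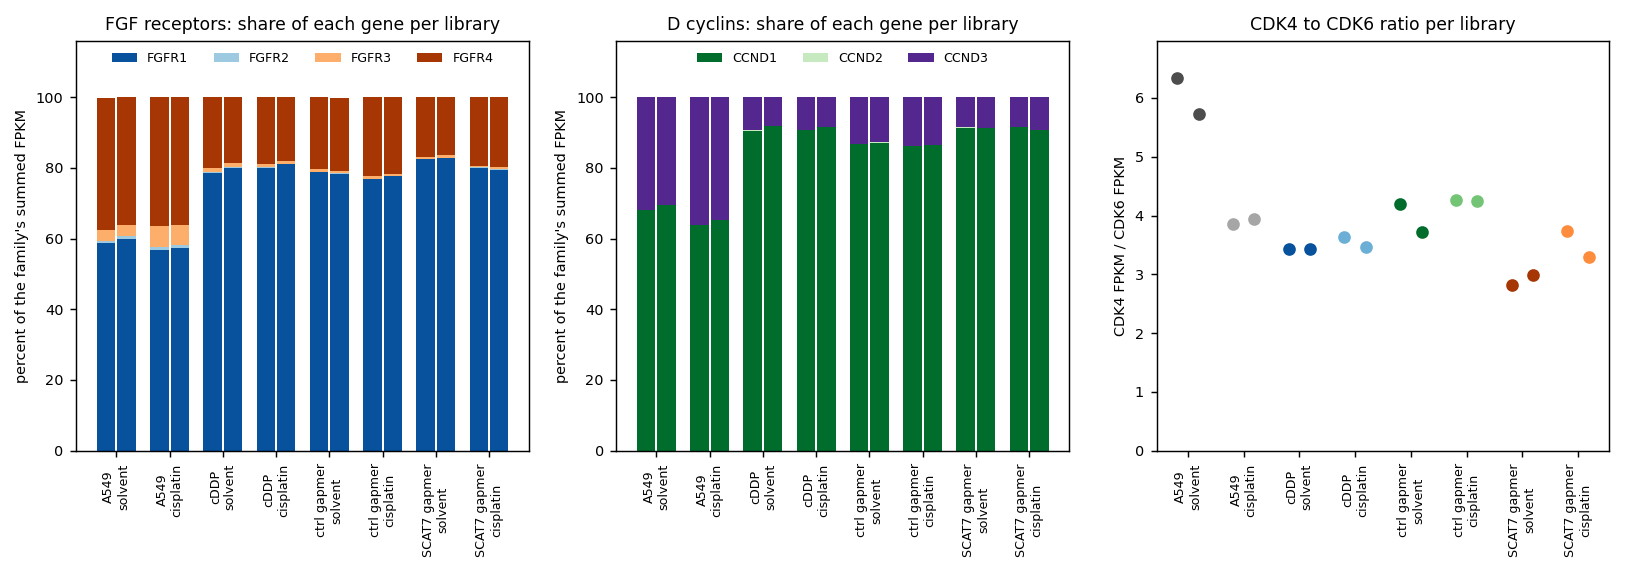
Left and middle: share of each gene in the summed FPKM of the FGF receptors and of the D cyclins (y axis, percent), 1 bar per library in 8 groups of 2; right: CDK4 FPKM divided by CDK6 FPKM per library (y axis, ratio, from 0). The CCND1 share runs from 63.8% in A549 in cisplatin to 91.8% in A549/cDDP in solvent, and the kinase ratio from 2.82 with the SCAT7 gapmer in solvent to 6.34 in A549 in solvent.

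CDK4, the kinase that binds D cyclins and phosphorylates RB1, fell with cisplatin in A549 and gave no call in A549/cDDP. A549 held 215 and 212 FPKM in solvent and 128 and 133 in cisplatin, and A549/cDDP 198 and 199 in solvent and 204 and 197 in cisplatin. The A549 groups did not overlap and the change was -0.71 ± 0.05 (limma adjusted p = 8.35e-08). In A549/cDDP the groups overlapped and the change was 0.01 (95% interval -0.10 to 0.12). The difference between lines in this response was 0.72 ± 0.07 (limma adjusted p = 3.76e-06). In solvent the lines differed by -0.10 (limma adjusted p = 0.0817), which passed the threshold in a fit of the 4 libraries (0.00686) and, at -0.26, with median ratio scaling (0.0012). In cisplatin CDK4 was higher in A549/cDDP by 0.61 ± 0.05 (limma adjusted p = 2.69e-07).

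The control gapmer libraries held 225 and 218 FPKM of CDK4 in solvent and 220 and 218 in cisplatin, and the SCAT7 gapmer libraries 149 and 169 in solvent and 180 and 171 in cisplatin. All SCAT7 gapmer libraries were below all other A549/cDDP libraries. CDK4 was lower than with the control gapmer by -0.48 ± 0.05 in solvent (limma adjusted p = 5.4e-06) and -0.32 ± 0.05 in cisplatin (0.000204), and lower than in untransfected cells by -0.32 ± 0.05 in solvent (0.000163) and -0.19 ± 0.05 in cisplatin (0.00837). The last of these was lost in a fit of the 4 libraries (adjusted p = 0.0654) and without untransfected replicate 1 (0.0565) or SCAT7 gapmer replicate 2 (0.054). The control gapmer against untransfected cells gave 0.16 ± 0.05 in solvent (limma adjusted p = 0.0248) and 0.13 ± 0.05 in cisplatin (0.0495). These small rises did not hold in several settings. In solvent the adjusted p was 0.0659 with no filter, 0.177 with quantile normalization, 0.129 and 0.0557 without control gapmer replicate 1 or 2, and 0.10 and 0.0805 without untransfected replicate 1 or 2. In cisplatin it was 0.174 with median ratio scaling, 0.122 with no filter, 0.0503 with a pseudocount of 0.1, 0.263 with quantile normalization, and between 0.0703 and 0.21 without any 1 of the 4 libraries. TSPAN31, on the opposite strand, shares 1369 bases, or 43.2%, of the CDK4 exons and averaged 23.8 FPKM, and without a known strand setting reads there cannot be told apart.

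CDK6, the partner kinase, was higher in A549/cDDP and moved little otherwise. A549 held 33.9 and 37.0 FPKM in solvent and 33.2 and 33.7 in cisplatin, and A549/cDDP 57.8 and 58.2 in solvent and 56.0 and 56.7 in cisplatin. The 4 A549 libraries were the lowest of the 16. The line difference was 0.70 ± 0.05 in solvent (limma adjusted p = 1.61e-07) and 0.74 ± 0.05 in cisplatin (1.1e-07). With the control gapmer CDK6 stood at 53.6 and 58.7 in solvent and 51.5 and 51.3 in cisplatin, and with the SCAT7 gapmer at 53.0 and 56.6 and at 48.4 and 51.9. These groups overlapped, and SCAT7 against control gapmer gave -0.03 (95% interval -0.16 to 0.09) in solvent and -0.04 (-0.16 to 0.09) in cisplatin. Against untransfected cells in cisplatin the SCAT7 gapmer gave -0.17 ± 0.05 (limma adjusted p = 0.0226), lost in a fit of the 4 libraries (0.0878) and without untransfected replicate 1 (0.0628), untransfected replicate 2 (0.0904) or SCAT7 gapmer replicate 1 (0.16). The control gapmer in cisplatin gave -0.13 ± 0.05 (limma adjusted p = 0.0703), which passed with median ratio scaling (0.0457), quantile normalization (0.0238) and a fit of the 4 libraries (0.0303). The ratio of CDK4 to CDK6 FPKM was 6.34 and 5.73 in A549 in solvent, 3.86 and 3.94 in A549 in cisplatin and 3.43 in both A549/cDDP solvent libraries. It was 2.82 and 2.98 with the SCAT7 gapmer in solvent, the lowest of the 8 groups.

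The counts of calls were read against all 17198 genes tested. Cisplatin in A549 called 1 of the 8 tested members higher and 3 lower, where 33.3% of all genes were higher and 27.1% lower. In A549/cDDP it called 0 higher and 2 lower, against 3.55% and 4.55% of all genes. The difference between lines in the drug response called 3 higher and 1 lower (21.5% and 25.6%), the last being CCND3 at -0.26 (limma adjusted p = 0.0494), which missed the threshold in settings given in the closing section. The members' median change was -0.07 in A549 and -0.04 in A549/cDDP, beside 0.06 and 0 over all genes tested.

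In solvent A549/cDDP differed from A549 in 6 members, 3 up and 3 down, where 42.7% of all genes were higher and 27.5% lower. CCND2, which entered the test only through A549/cDDP, is among the higher members in both line comparisons and adds no support to their counts. Median ratio scaling moved the median change of all genes from 0.15 to 0.02 and the higher share of their calls from 60.8% to 49.6%, and gave 1.02 for CCND1, 1.79 for CCND2 and 0.55 for CDK6, and -1.53 for FGFR3, -1.42 for FGFR4 and -1.22 for CCND3. In cisplatin all 8 were called, 5 higher and 3 lower, against 37% and 29.5% of all genes. Summed epithelial markers moved with the line, from 8410 to 8430 FPKM in A549 in solvent and 5560 to 5710 in A549/cDDP. Summed fibroblast markers, nearly all COL1A1, were 9.42 to 9.93 and 36.6 to 40, and the part of these in the members' changes was not tested.

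With a gapmer present cisplatin called no member by limma, 0 of 8 for either gapmer. The backgrounds were 1.67% higher and 0.855% lower for the control and 2.92% and 1.26% for SCAT7. The higher share of these calls went with median ratio scaling from 66.2% to 52.6% and from 69.8% to 58%. At an unadjusted p under 0.05, 1 member passed with the control gapmer (CDK6, -0.12), where 14% of all genes did. With the SCAT7 gapmer 3 passed (FGFR4 at 0.16, CDK4 at 0.15 and CDK6 at -0.13), where 22.5% of all genes did. Leaving out SCAT7 gapmer solvent replicate 2 brought CDK4 past the threshold (0.23, limma adjusted p = 0.0268), and leaving out SCAT7 gapmer cisplatin replicate 2 did so for FGFR1 (-0.18, 0.0498). The difference between gapmers in the drug response called 0 of 8 by limma, where 0.488% of genes were higher and 0.442% lower. At an unadjusted p under 0.05 it had 1 member (CDK4, 0.16), where 13.7% of all genes passed.

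SCAT7 against control gapmer called 7 of 8 members in solvent, CCND1 and CCND2 higher and FGFR1, FGFR3, FGFR4, CCND3 and CDK4 lower, against 33.2% higher and 22.7% lower of all genes. In cisplatin the calls were those 7 in those directions, against 28.6% and 21.1%. Summed epithelial markers in solvent were 6660 to 6960 FPKM with the control gapmer and 5240 to 5330 with SCAT7, and the 5 leukocyte markers 0.0977 to 0.35 and 0.722 to 1.08, and their part was not tested. The control gapmer against untransfected A549/cDDP called 4 higher and 2 lower in solvent (20.7% and 19% of all genes) and 4 higher and 2 lower in cisplatin (23% and 19.4%), where quantile normalization took the higher share of calls from 54.3% to 43.9%. In each setting FGFR1, FGFR4, CCND3 and CDK4 were higher and CCND1 and CCND2 lower, the opposite of their direction in SCAT7 against control gapmer. Both comparisons use the same control gapmer libraries, once as the reference and once as the test, so the opposite signs are not independent of each other. The comparison without those libraries, SCAT7 gapmer against untransfected cells, was added after the values were seen. It called 1 higher and 4 lower in solvent (30.6% and 22.7% of all genes) and 0 higher and 3 lower in cisplatin (28.5% and 18.9%). Quantile normalization took the higher share of calls from 57.4% to 43% in solvent and from 60.1% to 42.6% in cisplatin. FGFR3 and CDK4 were lower in both settings of both comparisons of the SCAT7 gapmer. CCND3, lower against the control gapmer, was not called against untransfected cells, and neither was CCND1, which was higher against the control gapmer. The SCAT7 gapmer, the handling of transfection and the depth of the libraries cannot be told apart in that added comparison. Nor can the control gapmer, that handling and depth be told apart in control gapmer against untransfected cells. The control gapmer libraries held 42300000 to 43140000 fragments and the untransfected A549/cDDP libraries 33220000 to 39240000.

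**Figure D3:**
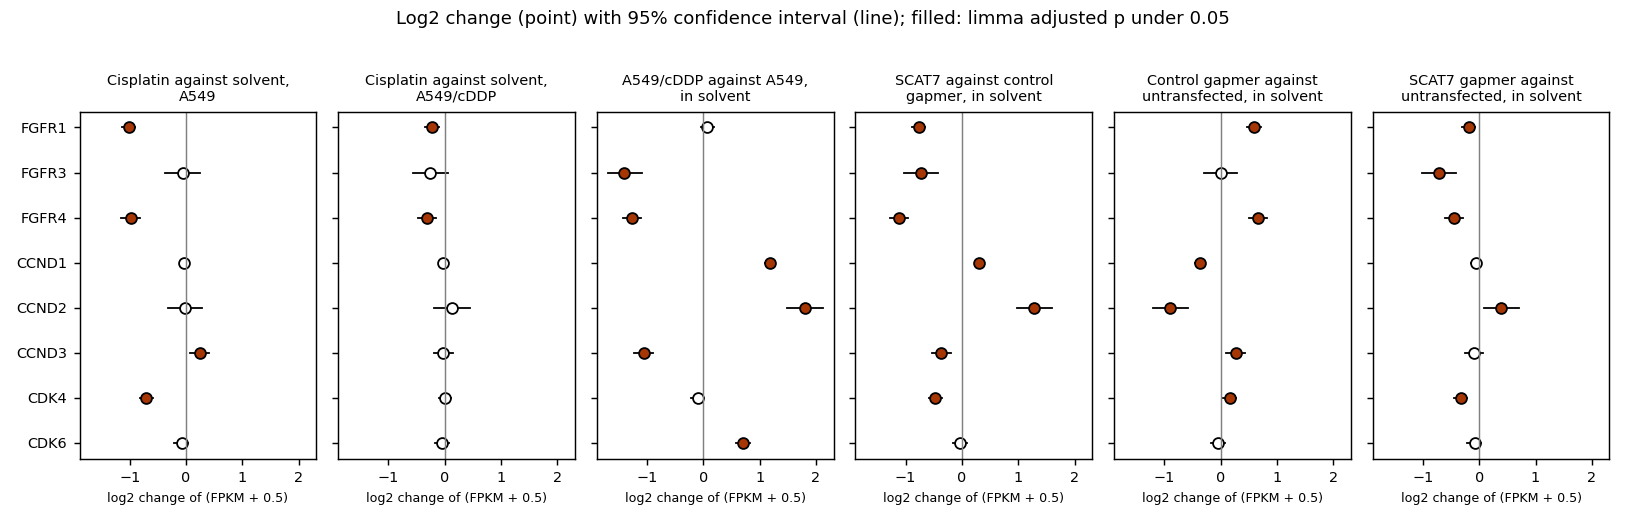
Log2 change of FPKM + 0.5 (x axis) with its 95% confidence interval for the 8 tested genes (y axis) in 6 comparisons; filled points have a limma adjusted p under 0.05, which for CCND2 between the lines is no test, as given above. FGFR1 is at -0.77 for SCAT7 against control gapmer, 0.59 for control gapmer against untransfected cells and -0.19 for SCAT7 gapmer against untransfected cells.

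Genes around the members were taken from lists of ligands, adaptors, feedback genes, inhibitors, cyclin turnover and the RB axis. Of 22 FGF ligands, 4 reached the minimum level for testing. FGF2, a ligand of several FGF receptors, was 26.5 ± 0.945 FPKM (SD, n = 2) with the control gapmer in solvent and 41.1 ± 2.05 with the SCAT7 gapmer, a rise of 0.62 (limma adjusted p = 2.61e-07). Untransfected A549/cDDP in solvent held 30.8 ± 0.59 FPKM of FGF2. In cisplatin FGF2 was 26.8 ± 0.284 with the control gapmer, 36.5 ± 0.17 with the SCAT7 gapmer and 35.5 ± 0.32 in untransfected A549/cDDP. FGF18 in solvent was 0.584 ± 0.132 with the control gapmer, 5.29 ± 0.787 with the SCAT7 gapmer and 0.286 ± 0.11 in untransfected A549/cDDP. These are log2 differences of 2.42 against the control and 2.88 against untransfected cells. FGF18 and FGF11 reached the minimum only through the SCAT7 gapmer groups, with means of 0.333 and 0.471 FPKM without them, so their differences are a description and no count or median of the ligands is given. FGF12, an intracellular member of the ligand family, stood at 0.514 in A549 and 5.24 in A549/cDDP in solvent. It reached the minimum only through the A549/cDDP groups (0.385 without them), and the difference is likewise untested.

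Of 14 ERK feedback and FGF response genes, 13 were tested, and with the SCAT7 gapmer 9 rose and 1 fell against the control gapmer in solvent (median 0.55, all genes 0.06), where 33.2% of all genes were higher and 22.7% lower. In cisplatin 10 rose and 0 fell (median 0.47, all genes 0.04), against 28.6% and 21.1% of all genes. In solvent DUSP6, a phosphatase that inactivates ERK, was 11.5 ± 0.622 FPKM with the control gapmer, 33.5 ± 0.32 with the SCAT7 gapmer and 15.0 ± 1.44 untransfected. With the SCAT7 gapmer it rose there by 1.51 against the control (limma adjusted p = 2.37e-09) and by 1.14 against untransfected cells (4.56e-08). Against the control gapmer in solvent, SPRED3, of a family that restrains RAS signalling, rose by 1.53. DUSP5, another ERK phosphatase, rose there by 0.88 and SPRY1 by 0.68. ETV4, an ETS factor of the list, fell by 0.31. Against untransfected cells 12 of 13 rose in solvent and 11 of 13 in cisplatin, with 0 lower in each and medians of 0.43 and 0.43 (all genes 0.02 and 0.05). Of all genes, 30.6% and 28.5% were higher there. With the control gapmer 5 were higher and 4 lower than in untransfected cells in solvent (20.7% and 19% of all genes). In A549, where 33.3% of all genes were higher and 27.1% lower, cisplatin raised 4, led by SPRY1 (0.883 to 6.22 FPKM, 2.28) and DUSP5 (29.4 to 91.2, 1.62), and lowered 6, led by ETV1 (-1.19) and SPRY2 (-0.99). FGFR1 and FGFR4 were lower in cisplatin-treated A549 and with the SCAT7 gapmer against its control.

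**Figure D4:**
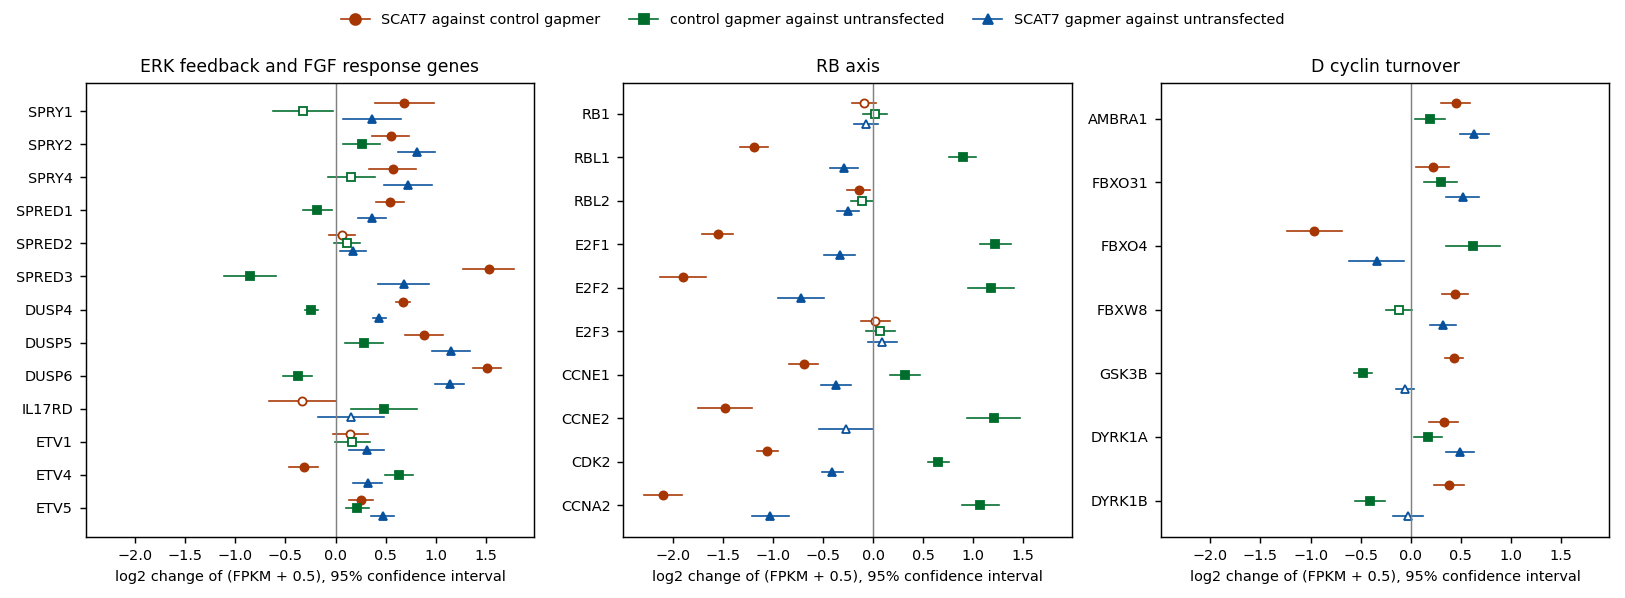
Log2 change of FPKM + 0.5 with its 95% confidence interval (x axis) for genes of 3 lists (y axis), in solvent: SCAT7 against control gapmer (circles), control gapmer against untransfected A549/cDDP (squares) and SCAT7 gapmer against untransfected (triangles); filled symbols have a limma adjusted p under 0.05. CCNA2 is at -2.10, 1.07 and -1.03 in these 3 comparisons, and DUSP6 at 1.51, -0.37 and 1.14.

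Of 9 receptor adaptors and proximal signalling genes, cisplatin in A549 raised 6 and lowered 0 (median 0.21, all genes 0.06), against 33.3% and 27.1% of all genes. FRS2, the docking protein of FGF receptors, went from 15.1 ± 0.793 to 28.0 ± 0.34 FPKM (0.88, limma adjusted p = 5.39e-08) and SHC1, an adaptor, from 143 ± 0.896 to 295 ± 2.4 (1.05, 1.13e-10). FRS3 rose by 1.04 and GAB1 by 0.46. With the SCAT7 gapmer in solvent 4 were higher than with the control gapmer and 1 lower (33.2% and 22.7% of all genes): FRS2 rose by 0.61, SOS1 by 0.47, SHC1 by 0.39 and PTPN11 by 0.22, and GRB2 fell by 0.08. SHC1 was nonetheless lower than in untransfected cells, by -0.42 (limma adjusted p = 1.56e-06), and the control gapmer stood at -0.81 against them.

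Of 10 RB axis genes, cisplatin in A549 lowered 7 and raised 3 (median -1.55, all genes 0.06), where 27.1% of all genes were lower and 33.3% higher. CCNA2, the gene of cyclin A2, went from 40.1 ± 0.259 to 5.82 ± 0.0529 FPKM (-2.68), E2F1 from 31.1 ± 0.194 to 4.79 ± 0.0875 (-2.58), E2F2 changed by -2.68 and CCNE2 by -1.94, and the 3 that rose were RB1 (0.45), RBL2 (0.22) and E2F3 (0.16). In A549/cDDP cisplatin lowered 5 and raised 0 (median -0.18, all genes 0), against 4.55% and 3.55% of all genes. With the SCAT7 gapmer in solvent 8 were lower than with the control gapmer and 0 higher (median -1.12, all genes 0.06), against 22.7% and 33.2% of all genes, led by CCNA2 (-2.10), E2F2 (-1.90), E2F1 (-1.55) and CCNE2 (-1.48). With the control gapmer in solvent 7 were higher and 0 lower than in untransfected cells (median 0.77, all genes -0.01), against 20.7% and 19% of all genes. E2F1 stood at 20.1 FPKM there, against 8.35 in untransfected cells. Against untransfected cells the SCAT7 gapmer lowered 7 in solvent (median -0.31, all genes 0.02), where 22.7% of all genes were lower. In cisplatin it lowered 3 and raised 1 (median 0, all genes 0.05), against 18.9% and 28.5% of all genes.

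Of 7 inhibitors of CDK4 and CDK6, CDKN2A, CDKN2B and CDKN1C were too low to test, with CDKN2A at most 0.399 FPKM. CDKN1A, the gene of p21, was 84.2 ± 0.123 FPKM in A549 in solvent, 1620 ± 17.7 in A549 in cisplatin and 577 ± 4.79 in A549/cDDP in solvent. In solvent it was 267 ± 2.2 after the control gapmer and 625 ± 2.24 after the SCAT7 gapmer. CDKN2C, the gene of p18, ran the other way, at 16, 2.45, 4.66, 9.18 and 1.47 in those groups. Cisplatin in A549 raised CDKN1A and lowered CDKN2C (-2.49), CDKN2D (-0.52) and CDKN1B (-0.25). Of 7 D cyclin turnover genes, 6 were higher and 1 lower with the SCAT7 than with the control gapmer in solvent (median 0.38, all genes 0.06), against 33.2% and 22.7% of all genes. AMBRA1, the adaptor of a ligase that marks D cyclins for destruction, rose by 0.45, FBXW8 by 0.44 and GSK3B by 0.43, and FBXO4 fell by 0.97. Against untransfected cells GSK3B stood at -0.06 and was not called, while AMBRA1 was higher by 0.63.

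The genes whose profiles over the 16 libraries were most like each member were sought among 10507 or 10508 genes averaging 5 FPKM or more, by Pearson r of log2(FPKM + 0.5). FGFR1 was nearest to DBF4B (0.98), CYP24A1 (0.977) and SPATA33 (0.975), and FGFR4 to UBE2T (0.994), POLD1 (0.992) and BCL2L12 (0.99). POLD1 encodes the catalytic subunit of DNA polymerase delta. FGFR3 was nearest to RPS6KB2 (0.99), BCAS4 (0.989) and SNRNP200 (0.989). CCND1 was nearest to DNAJB4 (0.992), APP (0.992) and COL6A1 (0.99), CCND2 to SQSTM1 (0.986), PRNP (0.983) and SNX19 (0.981), and CCND3 to TM4SF1 (0.99), PSMD8 (0.989) and GLDC (0.988). CDK4 was nearest to VOPP1 (0.974), NIF3L1 (0.972) and SPDL1 (0.964), and CDK6 to CLTC (0.985), PLEKHA2 (0.98) and USP40 (0.979). Among the members, CCND1 and CCND3 stood at -0.98, FGFR1 and CDK4 at 0.88, and FGFR1 and FGFR4 at 0.36. These r describe 16 libraries that form 8 groups of 2 and share the large step between the lines, and no test was made of them.

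In build hg38, by GENCODE release 29, CCND2 lies on chromosome 12 (4273772 to 4305350), as does CDK4 (57747727 to 57756013), with CCND1 on chromosome 11 (69641087 to 69654474), FGFR2 on chromosome 10 (121478334 to 121598458) and CDK6 on chromosome 7 (92604921 to 92836594). CCND3 lies on chromosome 6 (41934933 to 42050357), FGFR4 on chromosome 5 (177086886 to 177098144), FGFR3 on chromosome 4 (1793293 to 1808872) and FGFR1 on chromosome 8 (38400215 to 38468834). All values above are sums over the exons of a gene and do not separate isoforms.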

How the data were processed

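RNA was sequenced from 16 libraries in 8 groups of 2. The authors deposited 1 table of FPKM values, fragments scaled by gene length and library total, with 60448 gene identifiers. Reads were aligned with TopHat2 to hg38 and counted with HTSeq 0.6.1, per the submitters' processing notes. Annotation release and strandedness of counting are not given in the sources used here. Symbols and exon lengths came from GENCODE release 29, with a model for 56868 identifiers.

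Depth came from the spacing of low values, where 1 read sets the step: 70.8% of 16124 genes gave whole reads (tolerance 0.02), so gene-level read numbers are approximate and no count test was run. The 17198 genes averaging 0.5 FPKM or more were put on log2(FPKM + 0.5). A limma fit (version 3.58.1 in R 4.3.3) with a mean for each of the 8 groups, a trended prior and 8 residual degrees of freedom gave 14 comparisons, two-sided, with Benjamini-Hochberg adjustment over all genes and a threshold of 0.05. The test was also run on simulated data with few changed genes and a set spread between replicates. Those settings differ from the data here, and no result above rests on that run.

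The members, the lists around them and the rule for named genes (the members; list genes past the threshold, the 4 largest changes first; ELF3-AS1; the 3 nearest profiles) were chosen with earlier results of these data known. The SCAT7 gapmer against untransfected cells was added after the values were seen. Alternatives were pseudocounts of 0.1 and 1, a minimum of 1 FPKM or none, median ratio scaling, quantile normalization, a fit of only the libraries compared, a replicate block and leaving out each library. Promoter windows came from RefSeq.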

Additional observations from a re-analysis of the deposited data

Results flagged for a closer look

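In 4 of the 8 tested genes the response to cisplatin differed between A549 and A549/cDDP by a test of the difference itself in the limma model. Over all genes 21.5% gave a higher and 25.6% a lower difference, so the count is near the background. The log2 difference (A549/cDDP minus A549) was 0.79 for FGFR1, 0.67 for FGFR4 and 0.72 for CDK4, each lowered by the drug in A549 and changed less in A549/cDDP. For CCND3 it was -0.26, with a rise of 0.24 in A549 and -0.03 in A549/cDDP. The causes were not tested.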

How the results depend on the processing

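With 2 libraries a group, leaving out 1 library leaves 1 in its group and fewer residual degrees of freedom. A call can then be lost although the change is no smaller. For FGFR1 with cisplatin in A549/cDDP the change was -0.23 with all libraries and -0.25 without cisplatin replicate 2, where the call was lost. Fitting only the libraries compared moved the genes called to 417 for cisplatin in A549/cDDP, 270 for cisplatin with the control gapmer, 0 for cisplatin with the SCAT7 gapmer, 10 for the difference between gapmers in the drug response and 4770 for the SCAT7 gapmer against untransfected cells in cisplatin, from 1393, 435, 719, 160 and 8164, and the members called to 0 for cisplatin in A549/cDDP and 0 for the last. That fit has fewer residual degrees of freedom. With no filter on low values 262 genes were called for the difference between gapmers and 1 member for cisplatin in A549/cDDP. Leaving out 1 library in turn gave 509 to 1049 genes and 0 to 2 members for cisplatin in A549/cDDP, 137 to 179 genes for cisplatin with the control gapmer, 9 to 1626 genes and 0 to 1 member for cisplatin with the SCAT7 gapmer, and 45 to 462 genes for the difference between gapmers. For the SCAT7 gapmer against untransfected cells it gave 3 to 5 members in solvent and 1 to 3 in cisplatin.

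The CCND3 difference between lines, -0.26, was -0.15 without A549/cDDP solvent replicate 1 and -0.28 to -0.20 without the other libraries whose loss ended the call. Its adjusted p was 0.154 with median ratio scaling (-0.20), 0.132 with no filter, 0.0799 with only the libraries compared, 0.0717 with quantile normalization and 0.075 to 0.21 without each of 5 libraries. CCND1 for the SCAT7 gapmer against untransfected cells in solvent reversed with quantile normalization, to 0.12. The causes were not tested. The labels do not say whether replicate numbers pair the samples. Replicate differences correlated between groups at -0.19 to 0.12 (median 0.01, 28 pairs of groups), which cannot show whether replicates shared a culture or day. With the replicate block, CDK4 for the control gapmer in cisplatin gave 0.13 (limma adjusted p = 0.0631) and CDK6 -0.13 (0.0287), and no other member changed its call. Over all alternatives 1324 members' values kept their side of the threshold, 56 lost a call, 13 gained one and 1 reversed. A turn of sign was counted as reversed only where the main or the alternative fit gave a call. The 1324 therefore include turns of sign without a call, as for FGFR1 between the lines in solvent (0.07, and -0.09 with median ratio scaling). FGFR2 and the A549 values of CCND2 rest on few reads.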

Other observations

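Other genes that meet the FGF receptors and the CDKs also differed by condition. FGFRL1, a receptor-like protein without a kinase domain, was 23.4 ± 0.682 FPKM (SD, n = 2) in A549 in solvent and 9.97 ± 0.00921 in cisplatin, a fall by 1.19, and 20.7 ± 0.734 and 22.3 ± 2.44 in A549/cDDP. FGFBP1, which carries FGFs released from the matrix, fell by 0.76 with cisplatin in A549, and FGFBP3 rose by 1.19 there, from 2.85 ± 0.429 to 7.11 ± 0.314. KL and KLB, the co-receptors of the endocrine FGFs, reached at most 0.0189 and 0.258 FPKM and were not tested. In the kinase complex that activates CDKs, CDK7 was higher with the SCAT7 than with the control gapmer in solvent (0.23) and MNAT1 lower (-0.35), while CCNH was not called (-0.05).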
